A study of Mus musculus with 12 samples.

Results

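The endoplasmic reticulum (ER) genes described here are 38 genes for the import, folding, quality control and stress response of secretory proteins, named one by one for their function. The list was chosen with earlier results of these data known. All 38 were found among the 21754 genes of the bulk RNA-sequencing table, and all 38 passed the filter on low counts. RNA was measured in 12 SCRB-seq libraries, 3 for each of 4 populations sorted from lineage-depleted bone marrow of wild-type, untreated adult C57BL/6 mice. SCRB-seq starts reverse transcription at the poly(A) tail with a sample barcode, so the reads come mainly from 3' ends. The populations were Siglec-H- pre-cDCs, which are precursors of conventional dendritic cells, CD11c+Siglec-H+CCR9loB220lo precursors (lo-lo), CD11c+Siglec-H+CCR9loB220hi precursors (lo-hi) and CCR9hiB220hi plasmacytoid dendritic cells (pDCs). Each is a gate on surface proteins and may hold a mixture of cells.

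Secretory proteins enter the ER through the Sec61 channel, where chaperones, disulfide isomerases and glycosylating enzymes fold them. Proteins that fail to fold are sent back to the cytosol and destroyed by ER-associated degradation (ERAD). The sensors IRE1 (Ern1), ATF6 and PERK read the load of unfolded protein and start the unfolded protein response (UPR). IRE1 splices Xbp1 mRNA into the form that encodes an active transcription factor, ATF6 is cut and moves to the nucleus, and PERK slows translation and raises ATF4 and CHOP (Ddit3). pDCs are known for an extensive rough ER and for the secretion of type I interferon.

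Libraries were grouped by well, and the grouping decides every direction given here. The labels deposited for the wells name another population for 8 of the 12 wells. The groups used follow instead a match to the transcription factor values that the study published as source data for named samples. In that match, each of the 12 named samples had a single well whose counts put all 378 pairs of 28 transcription factors in that sample's order. In any other well, 8 or more pairs stood in another order. None of the 38 ER genes is among those factors. Label and match name the same population in 4 wells, used here as replicate 1 of pre-cDC, 2 of lo-lo, 2 of lo-hi and 3 of pDC. With the libraries grouped by their deposited labels, edgeR called 0 of the 38 genes and 0 of all 15293 genes tested in each of the 5 comparisons, and 0 of the 38 had an unadjusted p under 0.05 in any of them. At that unadjusted level, 344 genes of all 15293 were counted between the libraries labelled pDC and pre-cDC, against 6210 with the groups used here.

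The markers of the sort were checked in the grouped libraries. Siglech lay at 206 to 443 CPM (counts per 1000000 of the TMM-scaled library total) in pre-cDCs and at 2537 to 2992 CPM in pDCs. Csf1r, a cDC lineage gene, lay at 67.4 to 107 CPM in pre-cDCs and at 6.81 to 8.21 CPM in pDCs. All 8 pDC markers were called higher and all 8 cDC precursor markers lower in pDCs than in pre-cDCs. Of these, 3 of the pDC and 5 of the cDC precursor markers are among the 28 transcription factors that set the groups, so the check is not independent of the grouping. Total counts ran from 1801463 to 5995971 per library, so that the floor of 3 counts lay between 0.5 and 1.67 CPM before that scaling. The lowest count of any ER gene in a library was 7, for Ddit3. Mitochondrial genes took 3.0% to 12.3% of the counts, with both extremes in pre-cDC libraries (replicates 3 and 2), and 5.43% to 9.99% in pDCs. Whether they had a part in the results was not tested.

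The ER stress element (ERSE) is a DNA element through which ATF6, with NF-Y, acts on promoters of ER chaperone genes. It was searched as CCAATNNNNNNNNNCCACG on both strands of RefSeq promoters (GRCm38.p6), from 250 bases before to 50 after each start, to show which of the genes below carry the letters. Of the 38 genes, 31 had a promoter in the table. ERSE letters stood in 8 of these 31 (25.8%) and in 37 of all 27025 genes (0.137%). The element was defined on genes of this kind, so this share is not independent of how the list was made. The matches are printed 5' to 3' on the gene's strand with the element in capitals, and matches on the opposite strand read CGTGG first. For Hspa5, the RefSeq start lies downstream of the GENCODE start, and the match lies within an annotated exon.
Hspa5, chr2:34772020-34772048 (+): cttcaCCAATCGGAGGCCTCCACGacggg
Hsp90b1, distal, chr10:86705613-86705681 (-): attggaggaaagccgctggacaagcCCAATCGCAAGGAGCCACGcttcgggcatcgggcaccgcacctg
Hsp90b1, proximal, chr10:86705528-86705556 (-): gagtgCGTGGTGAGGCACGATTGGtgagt
Dnajc3, chr14:118937802-118937870 (+): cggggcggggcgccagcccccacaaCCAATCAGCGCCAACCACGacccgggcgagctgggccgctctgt
Creld2, chr15:88819495-88819563 (+): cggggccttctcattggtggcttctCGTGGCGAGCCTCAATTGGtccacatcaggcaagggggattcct
Calr, chr8:84847050-84847118 (-): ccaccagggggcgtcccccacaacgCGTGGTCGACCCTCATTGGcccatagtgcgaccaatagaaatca
Canx, chr11:50325775-50325843 (-): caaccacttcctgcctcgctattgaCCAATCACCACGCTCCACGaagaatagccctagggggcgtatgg
Pdia6, chr12:17266466-17266534 (+): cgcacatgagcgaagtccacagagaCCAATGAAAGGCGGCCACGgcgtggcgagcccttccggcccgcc
Syvn1, chr19:6046507-6046575 (+): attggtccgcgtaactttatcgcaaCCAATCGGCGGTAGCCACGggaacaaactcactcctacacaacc

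The other elements searched were rare among these promoters. TGACGTGG, the core of the UPR element bound by XBP1 and ATF6, stood in 0 of the 31 and in 0.714% of all genes. TGATGNAAN, the core of the element bound by ATF4 with C/EBP factors, stood in 1 of the 31 and in 4.50% of all genes. The single match was in Herpud1, on the opposite strand, and is printed with the 9 matching bases in capitals.
Herpud1, chr8:94386291-94386349 (+): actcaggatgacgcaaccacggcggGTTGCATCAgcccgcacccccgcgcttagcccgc

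Across the 4 populations, the ER genes did not move as one block. Between pDCs and pre-cDCs, 3 of 5 UPR sensors and transcription factors, 6 of 10 chaperones and co-chaperones, 2 of 4 ERAD genes and 1 of 3 Sec61 genes were higher in pDCs, and no listed subunit of the translocon-associated TRAP complex, signal peptidase, the signal recognition particle or oligosaccharyltransferase passed the test. A difference among the 4 populations was called by edgeR (adjusted p under 0.01 over all 15293 genes) for 10 of the 38 (26.3%), beside 19.9% of all genes tested. Between pDCs and pre-cDCs, 12 of the 38 (31.6%) were higher in pDCs, beside 11.4% of all genes, and 0 were lower, beside 10.4%. Of all 38, 19 had an unadjusted p under 0.05 in that comparison, beside 6210 of all 15293 genes. DESeq2 called 11 of the 38, of which 10 were higher, beside 2982 of all genes in either direction. Because the list was chosen with earlier results of these data known, its shares are not independent of them. The median log2 fold change of the 38 was 0.30, beside 0.05 for all genes. This median was not stable to single libraries: it was 0.09 without pDC 1 and 0.17 without pre-cDC 2. In bulk samples, more cells of a type and more RNA per cell cannot be told apart.

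**Figure D1:**
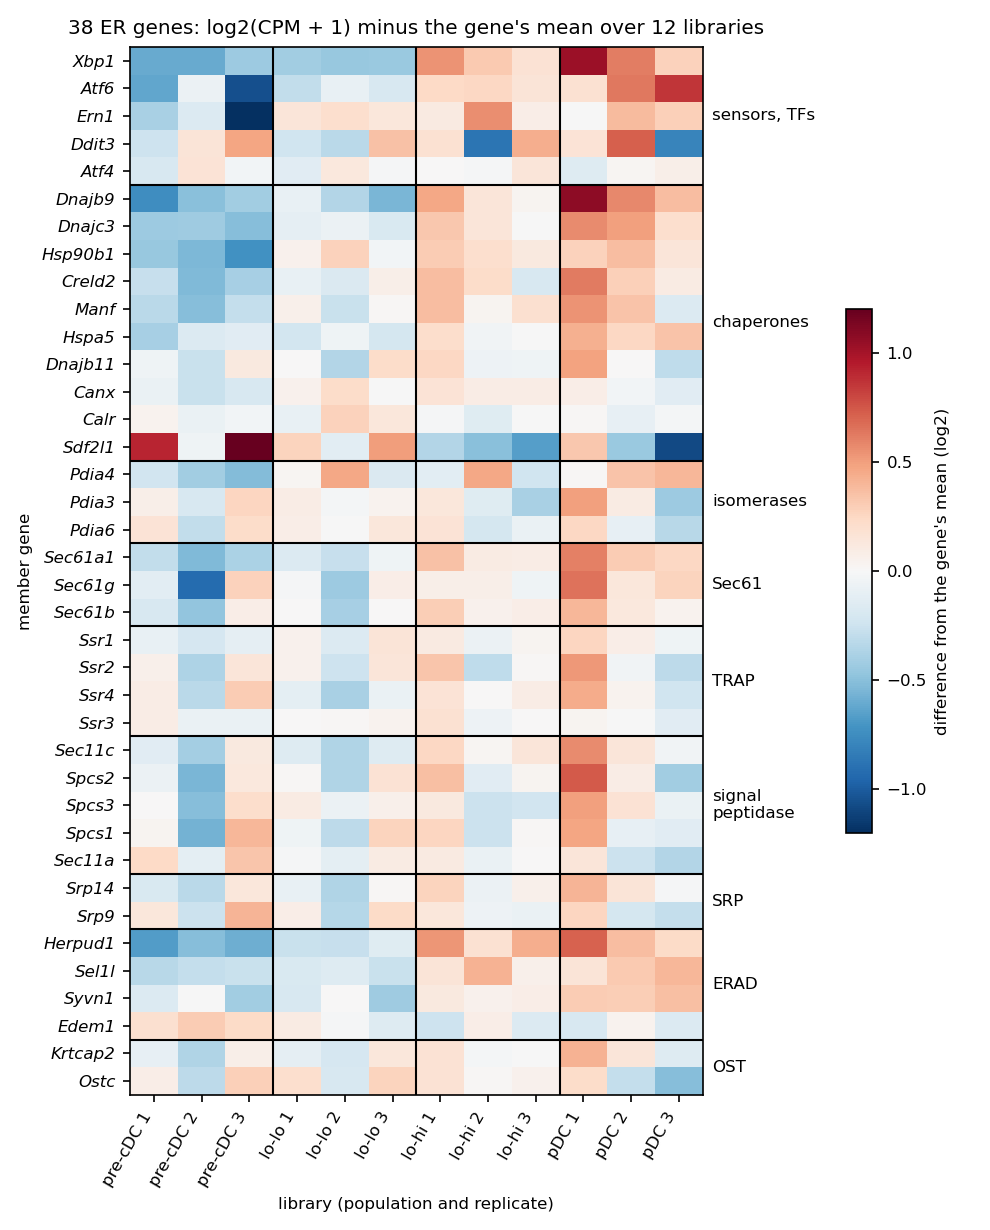
Heat map of the 38 ER genes (rows, by role) in the 12 libraries (columns, by population and replicate). Colour gives log2(CPM + 1) minus the gene's mean over the 12 libraries, in log2 units. Xbp1, Herpud1, Dnajb9 and Dnajc3 are low in all 3 pre-cDC libraries and high in all 3 pDC libraries, whereas most signal peptidase, TRAP and SRP genes are high in pDC 1 and low in pre-cDC 2 without a common shift between populations.

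Among the 5 sensors and transcription factors, 3 rose from pre-cDC to pDC and Atf4 and Ddit3, of the PERK branch, stayed short of the cutoff. Xbp1 (chr11:5520659-5525893), the transcription factor that expands the ER, was at 109, 109 and 123 CPM in pre-cDCs and at 124, 120 and 122 CPM in lo-lo cells. It was at 242, 207 and 188 CPM in lo-hi cells and at 340, 254 and 201 CPM in pDCs. Each lo-hi and pDC library therefore lay above all 6 libraries of the other populations, while lo-hi and pDC libraries overlapped. The log2 fold change from pre-cDC to pDC was 1.23 ± 0.17 (SE), a 2.34-fold difference (edgeR adjusted p = 2.70e-06, n = 3 per population). The counts are summed over the gene, so spliced and unspliced Xbp1 mRNA are not separated.

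Atf6 (chr1:170704674-170867771), the sensor that is cleaved in the Golgi, was at 26.3, 39.2 and 19.3 CPM in pre-cDCs, at 33.4, 38.6 and 36.0 in lo-lo cells, at 48.6, 49.1 and 45.7 in lo-hi cells and at 46.7, 64.4 and 75.5 in pDCs. The pDC libraries all lay above the pre-cDC libraries, though they overlapped those of lo-hi cells. Its log2 fold change was 1.15 ± 0.21 (SE, adjusted p = 0.000119). Ern1 (chr11:106394650-106487852), the gene of IRE1, was at 16.4, 19.3 and 8.11 CPM in pre-cDCs, at 24.2, 25.3 and 24.1 in lo-lo cells, at 23.6, 32.6 and 23.1 in lo-hi cells and at 21.8, 28.7 and 26.9 in pDCs. The gap for Ern1 thus lay between pre-cDCs and the 3 other populations. Ern1 passed from pre-cDC to pDC (0.83 ± 0.24 SE, adjusted p = 0.00832), but not in the test across all 4 populations (adjusted p = 0.0210). Without pre-cDC 3, the library with the lowest value, the log2 fold change was 0.49 and no longer passed.

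Atf4 and Ddit3, the members from the PERK branch, gave log2 fold changes near 0. Atf4 (chr15:80255184-80257541), the transcription factor translated when PERK or a related kinase is active, was at 94.0, 120 and 105 CPM in pre-cDCs, at 97.5, 117 and 106 in lo-lo cells, at 107, 106 and 119 in lo-hi cells and at 96.4, 109 and 112 in pDCs. The 4 populations overlapped, with a log2 fold change from pre-cDC to pDC of -0.01 ± 0.15 (SE, adjusted p = 0.979). ATF4 is controlled mainly in its translation, which these counts do not measure. Ddit3 (chr10:127290774-127296288), which encodes CHOP, was at 6.15, 8.43 and 10.8 CPM in pre-cDCs, at 6.20, 5.80 and 9.83 in lo-lo cells, at 8.61, 3.62 and 10.5 in lo-hi cells and at 8.51, 13.0 and 3.91 in pDCs. Its libraries overlapped widely and the log2 fold change of 0.05 ± 0.36 (SE, adjusted p = 0.935) had no stable sign.

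**Figure D2:**
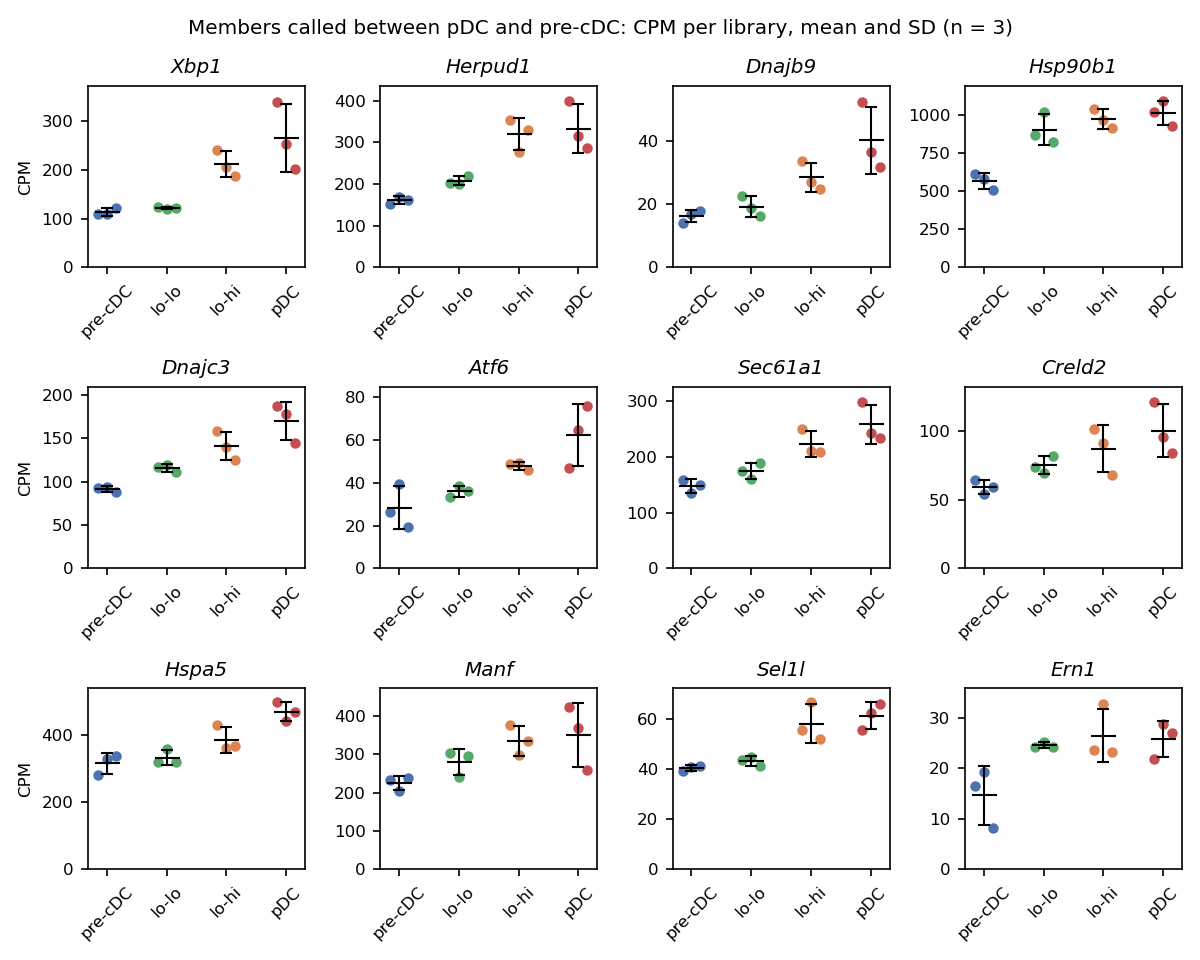
CPM per library (vertical axes from 0) of the 12 ER genes called between pDC and pre-cDC, in order of p. Points are libraries, bars are mean and SD of 3, and every pDC point lies above every pre-cDC point in each panel.

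Of the chaperones and co-chaperones, the largest role group, 6 of 10 were higher in pDCs than in pre-cDCs, beside 11.4% of all genes. Hspa5 (chr2:34771970-34777547) encodes BiP, the main Hsp70 chaperone of the ER, and was at 281, 330 and 338 CPM in pre-cDCs, at 319, 359 and 320 in lo-lo cells, at 430, 361 and 369 in lo-hi cells and at 499, 441 and 469 in pDCs. The pDC libraries were above all others, and the log2 fold change was 0.57 ± 0.14 (SE, adjusted p = 0.00240). Hsp90b1 (chr10:86690209-86705509), the gene of GRP94, was at 615, 578 and 508 CPM in pre-cDCs, at 870, 1019 and 825 in lo-lo cells, at 1041, 964 and 915 in lo-hi cells and at 1022, 1089 and 929 in pDCs. Its difference lay between pre-cDCs and the rest, with overlap among lo-lo, lo-hi and pDC libraries, and it came to 0.84 ± 0.14 (SE, adjusted p = 2.94e-05) from pre-cDC to pDC.

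Of the J protein co-chaperones of BiP, Dnajb9 and Dnajc3 were called and Dnajb11 was not. Dnajb9 (chr12:44205559-44210326), the J protein ERdj4 that restrains IRE1, was at 14.1, 16.9 and 17.9 CPM in pre-cDCs, at 22.7, 18.8 and 16.3 in lo-lo cells, at 33.8, 26.9 and 24.8 in lo-hi cells and at 52.3, 36.6 and 31.7 in pDCs. It had the highest log2 fold change of the 38, at 1.34 ± 0.21 (SE, adjusted p = 1.77e-05), or 2.52-fold. Dnajc3 (chr14:118937976-118981697) encodes the J protein p58IPK and was at 92.8, 93.7 and 87.8 CPM in pre-cDCs, at 117, 120 and 111 in lo-lo cells, at 158, 140 and 126 in lo-hi cells and at 187, 178 and 145 in pDCs. Pre-cDC, lo-lo and lo-hi libraries did not overlap for Dnajc3, and its log2 fold change from pre-cDC to pDC was 0.90 ± 0.15 (SE, adjusted p = 4.01e-05).

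Creld2 (chr15:88819646-88826683), a UPR-induced ER protein, was at 64.4, 54.0 and 59.5 CPM in pre-cDCs, at 73.8, 69.3 and 82.2 in lo-lo cells, at 102, 91.6 and 68.3 in lo-hi cells and at 121, 95.7 and 84.2 in pDCs. The pDC libraries were above the pre-cDC and lo-lo libraries (0.76 ± 0.18 SE from pre-cDC to pDC, adjusted p = 0.00140). Manf, a UPR-induced secreted factor, had a mean of 226 ± 18.6 CPM in pre-cDCs and of 352 ± 83.4 CPM in pDCs (SD, n = 3), with 0.64 ± 0.17 (SE, adjusted p = 0.00410). The lectin chaperone genes Calr and Canx gave -0.02 and 0.15, and Dnajb11 gave 0.17, none of which passed. Like Hspa5 and Hsp90b1, Calr and Canx carry ERSE letters. Of the 8 genes with ERSE letters, 4 were called higher in pDCs (Hspa5, Hsp90b1, Dnajc3 and Creld2), beside 11.4% of all genes tested. Of the 23 other genes with a promoter in the table, 5 were called higher. The called genes Sec61a1, Manf and Atf6 had no promoter in the table. Whether genes with and without the letters differ was not tested. Among genes outside the list, 9 with ERSE letters were tested and edgeR called 0 between pDCs and pre-cDCs, with a median log2 fold change of 0.27. Of these 9, 2 had an unadjusted p under 0.05, and DESeq2 called 0.

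Sdf2l1, a partner of the BiP complex singled out after its values were seen, had the lowest log2 fold change of the 38, at -1.06 ± 0.37 (SE). It was at 131, 66.9 and 162 CPM in pre-cDCs, at 83.3, 63.1 and 98.5 in lo-lo cells, at 53.9, 48.6 and 43.5 in lo-hi cells and at 86.9, 50.5 and 32.1 in pDCs. Its libraries varied widely within pre-cDCs and within pDCs, so that both overlapped. edgeR did not call it (adjusted p = 0.0531), while DESeq2 did (adjusted p = 0.00141).

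Of the 3 genes of the Sec61 channel, 1 passed. Sec61a1 (chr6:88503579-88518905), the gene of the pore-forming subunit, was at 159, 135 and 150 CPM in pre-cDCs, at 174, 161 and 189 in lo-lo cells, at 249, 210 and 208 in lo-hi cells and at 298, 242 and 233 in pDCs. The pre-cDC libraries lay below all others, and the lo-lo libraries below those of lo-hi cells and pDCs, with a log2 fold change of 0.80 ± 0.15 (SE, adjusted p = 0.000149) from pre-cDC to pDC. The small subunit genes Sec61b and Sec61g gave 0.38 and 0.55 and did not pass (adjusted p = 0.0797 and 0.0636). The 4 TRAP genes, which help some nascent chains through the channel, ran from -0.01 (Ssr3) to 0.24 (Ssr1). The 5 genes of signal peptidase, which cuts off the signal sequence, ran from -0.30 (Sec11a) to 0.37 (Sec11c). The signal recognition particle genes Srp9 and Srp14 gave -0.17 and 0.31, and the oligosaccharyltransferase genes Ostc and Krtcap2 gave -0.20 and 0.27. edgeR called 0 of these 13 genes in any of the 5 comparisons, as did DESeq2, and of them Sec11c alone had an unadjusted p under 0.05 between pDCs and pre-cDCs. That comparison called 11.4% of all genes higher and 10.4% lower, and whether these 13 differ from the Sec61 genes was not tested.

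The summed CPM of signal peptidase genes shows how these members behaved. It was 1033, 781 and 1213 in pre-cDCs and 1581, 1110 and 928 in pDCs, so the spread within each population exceeded the difference between their means (1009 and 1206). The lowest sum was that of pre-cDC 2, the library with the highest mitochondrial share (12.3%), and the highest that of pDC 1, at 5.43%. By contrast, the summed CPM of the 5 sensors and transcription factors was 252 to 297 in pre-cDCs, 286 to 307.5 in lo-lo cells, 386 to 430 in lo-hi cells and 420 to 513 in pDCs. The protein disulfide isomerase genes Pdia3 and Pdia6 gave log2 fold changes of 0.05 and -0.09 from pre-cDC to pDC. Pdia4, from the same enzyme family, gave 0.64 ± 0.20 (SE) without overlap but missed the cutoff (adjusted p = 0.0142).

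**Figure D3:**
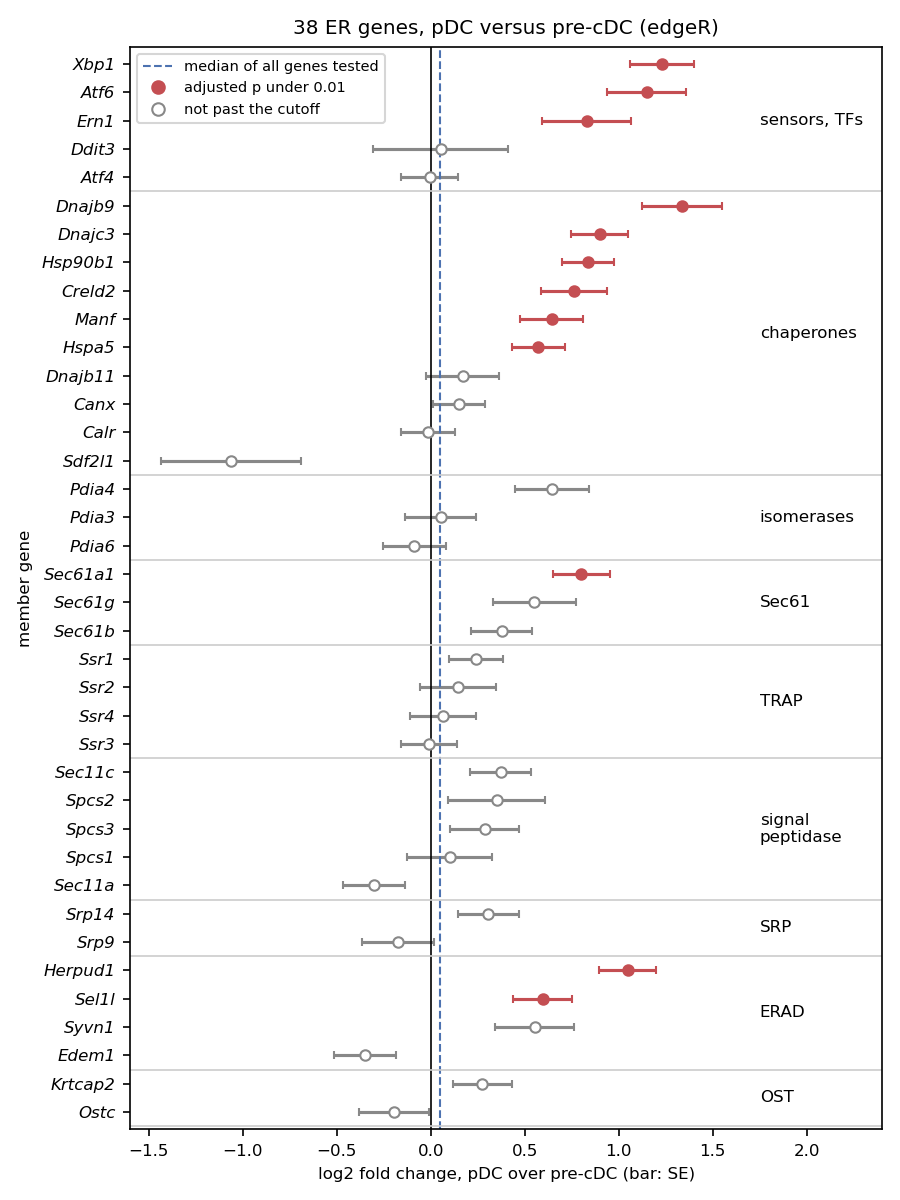
Log2 fold change from pre-cDC to pDC with its SE (horizontal axis) for each of the 38 ER genes, grouped by role. Filled red points passed an adjusted p of 0.01 in edgeR, open points did not, and the dashed line is the median of all genes tested (0.05). The 12 filled points, from 0.57 to 1.34, belong to the sensors, chaperones, Sec61 and ERAD.

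In the ERAD group, 2 of 4 genes rose. Herpud1 (chr8:94386438-94395377), which gathers the degradation machinery at the ER membrane, was at 153, 170 and 162 CPM in pre-cDCs, at 202, 200 and 220 in lo-lo cells, at 352, 276 and 330 in lo-hi cells and at 398, 315 and 285 in pDCs. All lo-lo libraries lay above the pre-cDC libraries and all lo-hi libraries above those of lo-lo cells, while those of lo-hi cells and pDCs overlapped. From pre-cDC to pDC the log2 fold change was 1.05 ± 0.15 (SE, adjusted p = 5.78e-06). Sel1l (chr12:91806043-91849157), the adaptor of the ubiquitin ligase HRD1, was at 39.2, 40.7 and 41.2 CPM in pre-cDCs, at 43.7, 44.7 and 41.1 in lo-lo cells, at 55.4, 66.7 and 51.8 in lo-hi cells and at 55.5, 62.2 and 65.9 in pDCs. The lo-hi and pDC libraries lay above those of the other populations, and the log2 fold change was 0.60 ± 0.16 (SE, adjusted p = 0.00483). DESeq2 did not call Sel1l (adjusted p = 0.0113). Syvn1, the gene of HRD1 itself, gave 0.55 ± 0.21 and Edem1, a mannosidase-like ERAD gene, gave -0.35 ± 0.16 (SE), and neither passed (adjusted p = 0.0487 and 0.112).

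By libraries, 15 of the 38 genes (39.5%) had all 3 pDC values above all 3 pre-cDC values, beside 21.5% of all genes tested. These were the 12 called genes with Pdia4, Ssr1 and Syvn1. The reverse held for 1 gene (Edem1), beside 17.9% of all genes. Mean CPM was in rising order from pre-cDC through lo-lo and lo-hi to pDC in 18 of the 38 (47.4%), beside 16.8% of all genes, and in falling order in 1 (Srp9), beside 12.2%. This order was not tested. Of the 12 called genes, 11 had means in this rising order. Ern1, the exception, had means of 14.6, 24.5, 26.5 and 25.8 CPM.

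Single steps gave few calls. Between pre-cDC and lo-lo cells, 1 of the 38 was higher in lo-lo cells (Hsp90b1, 0.67 ± 0.14 SE, adjusted p = 0.00241), beside 1.61% of all genes, and 0 were lower, beside 1.55%. At an unadjusted p under 0.05 there were 5 of the 38, beside 2694 of all 15293 genes. DESeq2 called 1 of the 38, beside 478 of all genes. Leaving out pre-cDC 3, lo-lo 1 or lo-lo 2 ended the call of Hsp90b1. Ern1 had the highest log2 fold change of this step, at 0.77 ± 0.24 (SE), and did not pass (adjusted p = 0.0533).

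Between lo-lo and lo-hi cells, which differ in B220 at the surface, Xbp1 (0.80 ± 0.17 SE, adjusted p = 0.00225) and Herpud1 (0.62 ± 0.15 SE, adjusted p = 0.00772) were higher in lo-hi cells. These are 2 of the 38, beside 2.33% of all genes, with 0 lower, beside 2.83%. At an unadjusted p under 0.05 there were 6 of the 38, beside 2963 of all 15293 genes. DESeq2 called 2 of the 38, beside 791 of all genes. No call was left without lo-lo 1, lo-lo 2, lo-lo 3, lo-hi 1 or lo-hi 2, and only that of Xbp1 was left without pre-cDC 1, lo-hi 3 or pDC 2. Between lo-hi cells and pDCs, edgeR called 0 of the 38 in either direction, beside 0.118% of all genes higher in pDCs and 0.844% lower. In that step, 1 of the 38 had an unadjusted p under 0.05 (Dnajb9, 0.49 ± 0.20 SE), beside 1735 of all 15293 genes. DESeq2 called 0 of the 38, beside 200 of all genes. The median log2 fold changes of the 38 were 0.07, 0.10 and 0.09 for the steps in order, beside 0.04, 0.01 and 0.03 for all genes. The first became -0.04 without pre-cDC 2 and the last -0.02 without pDC 1, while the second was 0.03 without lo-hi 1 and 0.19 without lo-lo 3.

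How far the calls between pDCs and pre-cDCs hold was followed through 20 alternatives that kept the groups, 12 of which leave out 1 library. Xbp1, Hsp90b1, Sec61a1, Herpud1, Dnajb9, Dnajc3 and Atf6 were called in all 20. Creld2 was called in 18, Hspa5 in 16, Manf in 15, Sel1l in 8 and Ern1 in 6. These counts include a looser cutoff on the same fit, which must keep all 12 calls. They also include leave-outs of lo-lo or lo-hi libraries, which keep every pDC and pre-cDC library. Hspa5 was not called without pre-cDC 1, pDC 1 or pDC 2, and Manf not without any of these or pre-cDC 2. Creld2 was not called without pDC 1. Among leave-outs of pDC or pre-cDC libraries, Sel1l was called only without pDC 1, and Ern1 only without pre-cDC 2 or pDC 1. Leaving out pre-cDC 1 or pDC 2 left 8 of the 38 called, beside 2503 and 2613 of all genes. In the 4 wells where label and match name the same population, all 12 called genes were higher in the pDC library than in the pre-cDC library, with ratios of CPM from 1.12 for Manf to 2.87 for Atf6. This follows from the absence of overlap between the pDC and pre-cDC libraries of these genes. Of all 38, 20 (52.6%) were higher in that pDC library, beside 50.6% of all genes tested. These are single libraries, already part of the fit, and were not tested by themselves.

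Beyond the 38, 112 genes of the same pathways were tested in 8 lists, and 32 were higher and 5 lower in pDCs than in pre-cDCs, beside 11.4% and 10.4% of all genes. Targeting and translocation gave 6 of 13 higher, among them the translocon-associated Tram2 (1.65 ± 0.25 SE) and Tram1 (0.93 ± 0.15 SE) and the receptor of the signal recognition particle, Srpr (0.97 ± 0.20 SE). Of other chaperones and glycan enzymes, 7 of 14 were higher, with Mzb1 at 3.22 ± 0.33, Hspa13 at 1.05 ± 0.18 and Hyou1 at 0.98 ± 0.24 (SE). Mzb1, a BiP-associated protein of antibody-secreting cells and pDCs, went from 17.8 CPM in pre-cDCs to 157 CPM in pDCs (means of 3). Other ERAD genes gave 7 of 18 higher, led by the mannosidase-like Edem3 (1.45 ± 0.22 SE) and Edem2 (1.43 ± 0.20 SE) and by Ubxn4 (1.24 ± 0.18 SE). Edem1 did not follow them.

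Disulfide enzymes outside the list went both ways. Of 12 tested, 4 were higher, with Txndc5 at 1.39 ± 0.18, Pdia5 at 1.09 ± 0.20 and Txndc11 at 1.07 ± 0.20 (SE). The ER peroxiredoxin gene Prdx4 was lower, with means of 128, 87.6, 41.8 and 28.1 CPM from pre-cDC to pDC and a log2 fold change of -2.18 ± 0.21 (SE, adjusted p = 5.90e-09). Of 15 other genes of the PERK branch and the integrated stress response, 1 was higher (Sesn2, 1.78 ± 0.29 SE) and 4 were lower. The lower genes included Atf3 (-3.40 ± 0.65), Nupr1 (-2.90 ± 0.33) and Cebpb (-1.66 ± 0.45 SE), which are stress-inducible or myeloid transcription regulators. Of 8 other sensors and site proteases, 3 were higher, with Creb3l2, an ER-bound transcription factor related to ATF6, at 1.91 ± 0.25, Mbtps2, the protease that cuts ATF6 in the membrane, at 0.75 ± 0.21 and Creb3 at 0.70 ± 0.19 (SE). DESeq2 called 1 of these 8. ER to Golgi transport gave 4 of 22 higher (Sec24d, Mcfd2 and Sec24c among them), and of 10 other oligosaccharyltransferase genes edgeR called 0, as did DESeq2, with 5 at an unadjusted p under 0.05.

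Genes of other kinds moved along with the ER genes. All 15 cell cycle genes checked were lower in pDCs than in pre-cDCs, with a summed CPM of 1762 to 2271 in pre-cDCs, 1988 to 2165 in lo-lo cells, 795 to 1046 in lo-hi cells and 353.5 to 429.5 in pDCs. This drop between lo-lo and lo-hi cells falls at the step where Xbp1 and Herpud1 were called, and its part in the result was not tested. Of 14 B cell and plasma cell markers tested, 2 (Sdc1 and Ighm) were higher in pDCs. The summed CPM of that list of 15 was 543 to 707 in pre-cDCs and 785 to 1282 in pDCs, with Ighm making up most of it. The plasma cell genes Prdm1 and Tnfrsf17 stayed under 1 CPM in each of the 12 libraries. Other genes of the list did not: Igkc ran from 15.5 to 173 CPM in pre-cDCs and from 60.7 to 151 in pDCs, Jchain from 2.03 to 32.7 and from 3.47 to 21.5, and Sdc1 from 6.45 to 8.78 and from 13.5 to 29.8. The summed granulocyte markers ran from 4440 to 11520 CPM in pre-cDCs, from 5328 to 17770 in lo-lo cells, from 9893 to 20680 in lo-hi cells and from 3258 to 6621 in pDCs, so that lo-hi and pDC libraries did not overlap. The erythroid and platelet markers ran from 4733 to 18530 CPM in pre-cDCs, 5874 to 8273 in lo-lo cells, 9224 to 11660 in lo-hi cells and 6803 to 14250 in pDCs, without overlap between lo-lo and lo-hi libraries. Between pDCs and pre-cDCs, edgeR called 0 of the 10 granulocyte, 0 of the 10 erythroid and platelet and 0 of the 5 T and NK cell markers tested. It also called 0 of each list at each single step. Between pDCs and pre-cDCs, each of these lists had 1 gene with an unadjusted p under 0.05, and DESeq2 called 1 granulocyte marker and 0 of the others. The part of such cells in the results was not tested.

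**Figure D4:**
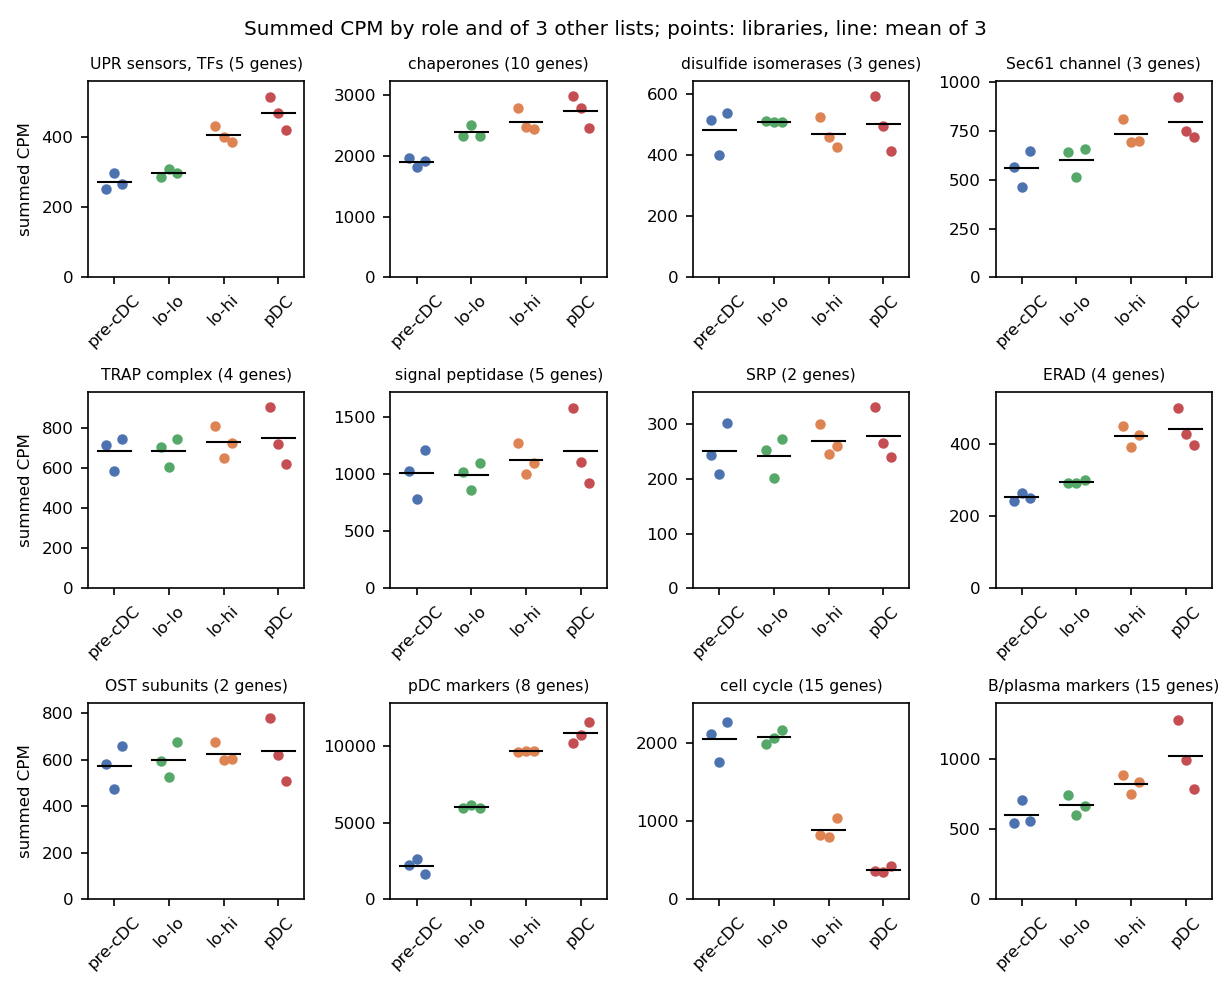
Summed CPM per library (vertical axes from 0) of the 9 role groups of the 38 ER genes and of the pDC markers, cell cycle genes and B and plasma cell markers. Points are libraries and lines are means of 3. The sums of UPR sensors, ERAD, the Sec61 channel, pDC markers and B and plasma cell markers are higher in every lo-hi than in every lo-lo library. That of cell cycle genes is lower. The sums of chaperones overlap between lo-lo and lo-hi libraries, and those of the isomerases, TRAP, signal peptidase, SRP and OST overlap in all 4 populations. Herpud1 (means of 207 CPM in lo-lo and 319 CPM in lo-hi cells) makes up most of the difference in the ERAD sum (294 and 422), and Xbp1 (122 and 212) most of that in the sensor sum (297 and 405).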

How the data were processed

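The authors processed reads with zUMIs, mapped them with STAR 2.5.2b to mm10 and assigned them to Ensembl genes (GRCm38). The values the authors deposited are raw counts, whole numbers for each gene in each well. Whether these are reads or molecular identifiers is not given in the sources used here. Identifiers were given symbols and positions from GENCODE vM21 (GRCm38), and 21410 of 21754 had a symbol.

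The 38 genes, the other lists and the grouping of wells were chosen with earlier results of these data known. After a filter at a mean count of 1 (15293 genes kept, 6461 left out), genes were tested in 1 fit of all 12 libraries, scaled by TMM, using edgeR 4.0.16 (R 4.3.3), its robust quasi-likelihood test and Benjamini-Hochberg adjustment at 0.01. The alternatives were DESeq2 1.42.0, its size factors, other filters, a cutoff of 0.05, thinning to 1801463 counts, the replicate number as a block, only 6 libraries, the deposited labels and leaving out each library. The steps were tested on simulated data.

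Per-library values were given for every gene called across the 4 populations and for Xbp1, Hspa5, Atf4, Ddit3, Atf6 and Ern1. From other lists, at most 3 genes per direction were named, by largest change from pre-cDC to pDC. The floor of 3 counts covers counting error only. Nothing in the labels ties libraries to mice, and the study's text speaks both of individual and of pooled mice, so p-values measure the spread between these libraries. Counts within each population differed beyond sampling noise, with chi-square per degree of freedom from 4.52 to 51.8, so no library was a copy of another. This check cannot tell libraries of separate mice from repeat libraries of the same sample. No set test was run.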

Additional observations from a re-analysis of the deposited data

How the results depend on the processing

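With the libraries grouped by the deposited labels, 0 genes were called in each of the comparisons, the median log2 fold change was -0.004 from pre-cDC to pDC and -0.056 from lo-hi to pDC, and single genes changed sign (Creld2 -0.031, Atf4 0.176). Fits of only the 6 libraries compared called 7 genes between pDC and pre-cDC and 0 between lo-lo and pre-cDC. Ddit3 changed sign with DESeq2 (-0.026) and with its size factors (-0.002). Leaving out 1 library gave 7 to 10 calls across the populations, 8 to 13 between pDC and pre-cDC, 0 to 1 between lo-lo and pre-cDC, 0 to 2 for lo-hi against lo-lo and 0 for pDC against lo-hi. It gave medians from -0.04 to 0.159 for lo-lo over pre-cDC and from -0.021 to 0.2 for pDC over lo-hi, and log2 fold changes from -0.091 to 0.059 for Atf4 and from -0.339 to 0.313 for Ddit3. The fits of only 6 libraries and those without 1 library also hold fewer libraries. The cause of these shifts was not tested.

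The replicate numbers were not taken as pairs, because nothing in the labels ties libraries to mice. The study's figure legend speaks of individual mice, and its methods of pooled bone marrow. Deviations from the population means correlated at a mean of 0.192 between libraries of the same number (18 pairs, lowest -0.259) and at -0.0958 between others, over 10808 genes. Deviations cancel out within each population, so the second mean follows largely from the first and is no separate observation. By these correlations, 10 of the 12 libraries were closest to one of their own number. With the replicate block, 12 of the 38 genes were called across the populations, beside 3730 of all 15293 genes (3043 without the block). Between pDC and pre-cDC it called 13, beside 3882 of all genes, and between lo-lo and pre-cDC 1, beside 743. For lo-hi against lo-lo it called 2, beside 1063, and for pDC against lo-hi 0, beside 346. The gene added between pDC and pre-cDC was Pdia4. The size factors moved the median of all genes from 0.048 to -0.002 between pDC and pre-cDC and left 28 of 38 genes above 0, against 29. With 3 libraries a population, an exact permutation test of 1 gene cannot go below p = 0.1.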
